A study of Mus musculus with 12 samples.

Results

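Hepatocytes take up glucose, store it as glycogen, burn it through glycolysis and release it again in fasting, and 9 genes of this work are described here: Slc2a2, Gckr, Pklr, G6pc, Pck1, Fbp1, Gys2, Pygl and Ppp1r3b. They were chosen by name, and all 9 were found among 15780 probe sets with 1 gene symbol, each gene with 1 probe set. RNA came from primary hepatocytes of male C57BL/6J mice aged 8 weeks, which were wild type or lacked Cnot6l, and no other treatment is named. CNOT6L belongs to the CCR4-NOT complex and trims poly(A) tails, an early step in the decay of an mRNA. Every preparation of cells gave input RNA and RNA precipitated with an antibody against CNOT6L (IP), and the knockout cells, which lack the antibody's target, were the negative control of the precipitation. Input and IP of the 2 genotypes made 4 groups of 3 arrays. The labels call the replicates biological and number them 1 to 3, but do not say whether each came from its own animal. Without a block, p-values measure the spread between these preparations. Fits with the preparation or the number as a block take its level out, and their p-values measure the spread that remains. The sources used here do not say whether the Cnot6l deletion was limited to a cell type.

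Glucose enters the hepatocyte through the transporter SLC2A2 and is trapped by glucokinase, which the regulatory protein GCKR holds in the nucleus when glucose is scarce. Pyruvate kinase, from Pklr, closes glycolysis, while PCK1, FBP1 and glucose-6-phosphatase, from G6pc, run the steps that gluconeogenesis does not share with it. Glycogen is built by the synthase GYS2 and broken down by the phosphorylase PYGL, and PPP1R3B brings protein phosphatase 1 to glycogen, where it favours synthesis. In the liver these genes are known to answer to feeding and fasting through insulin, glucagon and glucose itself.

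Values are log2 signals as deposited, so a difference of 1 is a doubling of signal. The probe set of Cnot6l read 8.44, 9.51 and 9.11 in the wild-type inputs and 9.12, 9.23 and 9.34 in the knockout inputs, and was not lower in the knockout (difference 0.21 ± 0.50, SE, n = 3 per group, limma adjusted p = 1.0). Where its probes lie relative to the deleted part is not given, so this value checks no label, and the genotypes below are those of the labels. Of the 8 hepatocyte markers listed, 7 were in the table and all 7 lay above the level required for testing, with summed log2 signals of 16.41 to 16.50 in the wild-type inputs, 16.40 to 16.46 in the knockout inputs, 15.997 to 16.14 in the wild-type IPs and 15.93 to 16.06 in the knockout IPs. Among markers of other liver cells that level was reached by 1 of 7 Kupffer cell and macrophage genes, 2 of 6 endothelial genes, 3 of 6 stellate cell and fibroblast genes, 2 of 4 cholangiocyte genes and 1 of 4 lymphocyte genes. The 7 Kupffer cell and macrophage genes summed to 7.44 to 7.81 in the wild-type inputs, 7.31 to 7.68 in the knockout inputs, 7.91 to 8.34 in the wild-type IPs and 8.01 to 8.31 in the knockout IPs. Genes were tested where the mean over the 12 arrays reached 5.57, which kept 9496 genes and 8 of the 9 genes described here. Pck1, with a mean under that level, was left out of the test, and G6pc passed narrowly.

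The plot of single arrays shows that the signals of most of these genes followed the replicate number more closely than the group. An array's number is that of its preparation, and in these data arrays of the same number deviated together across all 4 groups. In the median over the 8 tested genes, 73.4% of the sum of squares over the 12 arrays lay between the numbers and 16% between the groups. Over all 9496 genes the medians were 47.5% and 24.1%. Slc2a2, Gys2, Ppp1r3b, Fbp1 and Pygl were lowest in number 3 in all 4 groups, which is 62.5% of the 8 genes against 20.3% of all genes tested. These shares are descriptions and carry no test.

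**Figure D1:**
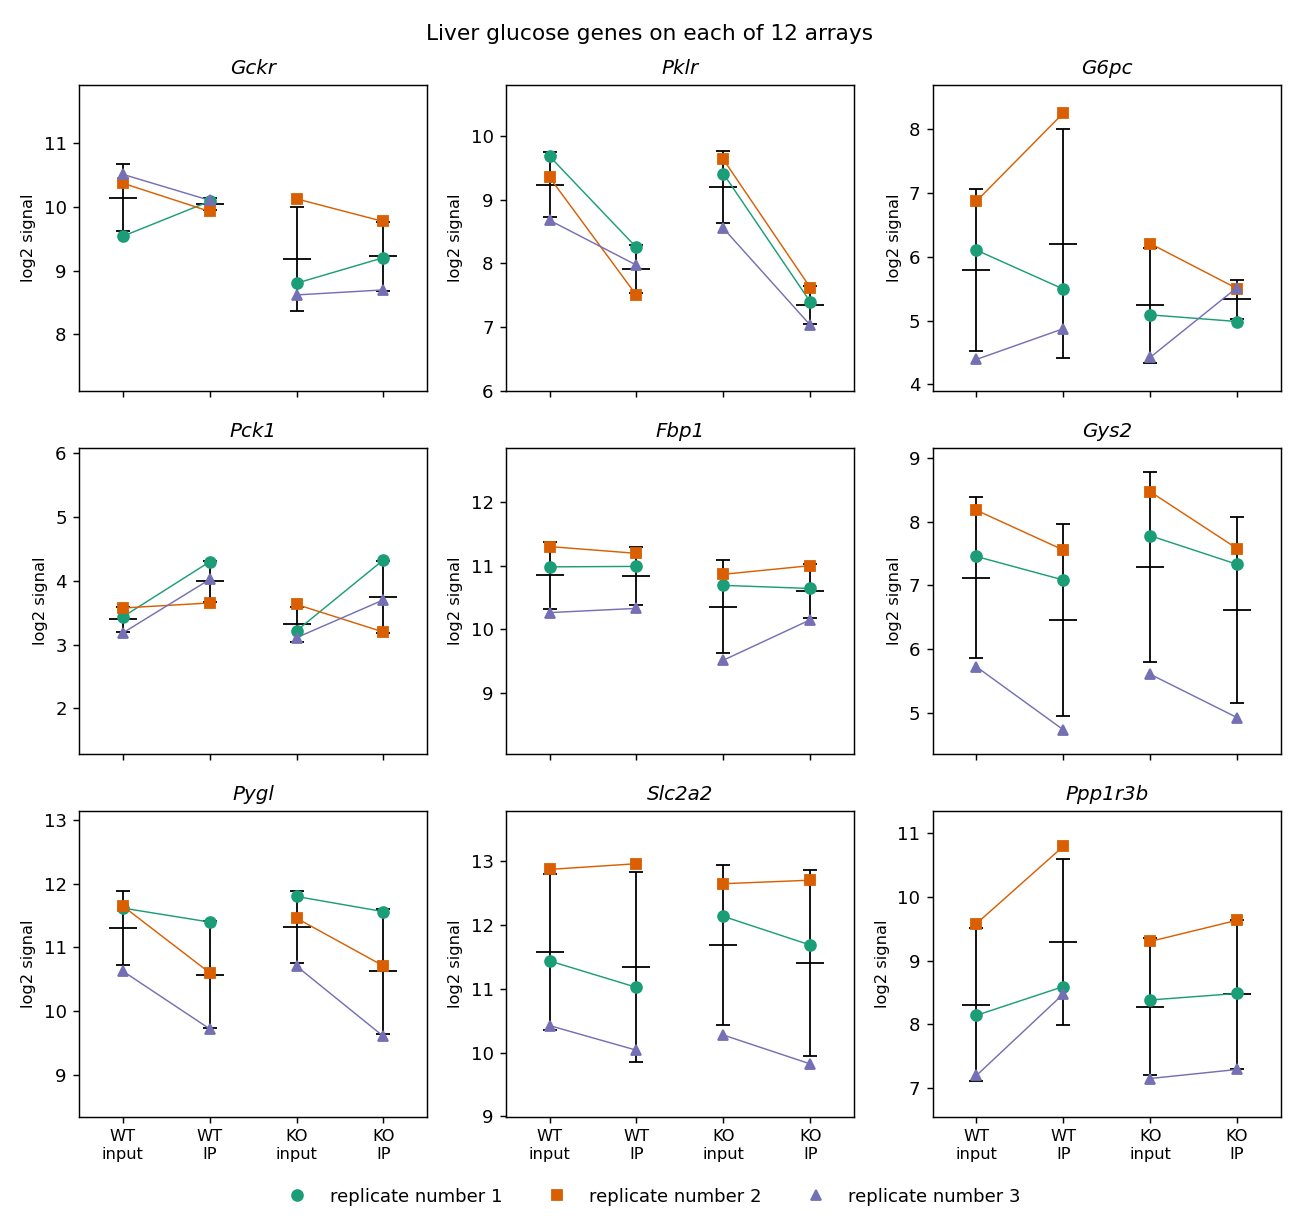
Log2 signal of the 9 genes on each of the 12 arrays. Columns are the 4 groups, markers and lines in 3 colours are the replicate numbers, the line joins input and IP of 1 preparation, black dashes with bars are the mean ± SD of 3 arrays, and each panel spans 4.8 log2 units. For Slc2a2, Gys2 and Ppp1r3b number 3 is lowest in every group, though narrowly for Ppp1r3b in the wild-type IP (8.48, against 8.59 in number 1). The lines of Pklr step down from input to IP.

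Slc2a2, the glucose transporter, had the largest share of its variation between numbers, while Gys2 had the wider range of number means (2.70 log2 units). Its wild-type inputs read 11.44, 12.88 and 10.43 for numbers 1, 2 and 3 and its knockout inputs 12.14, 12.65 and 10.28. The IPs read 11.02, 12.96 and 10.04 in the wild type and 11.69, 12.71 and 9.82 in the knockout. Number 2 was highest and number 3 lowest in each group, so that every group overlapped the other 3. The number means were 11.57, 12.80 and 10.14, a range of 2.66 log2 units, and 93.9% of the variation lay between numbers, a larger share than in 98.9% of all genes tested. Against this spread the input of the knockout differed from that of the wild type by 0.11 (95% interval -1.94 to 2.16), and IP from input by -0.24 in the wild type and -0.28 in the knockout.

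Other measures moved with number 3 as well. Collagen III, from Col3a1, a stellate cell and fibroblast marker, read 8.65 to 9.98 in number 3 and 4.68 to 6.31 in the other numbers. The summed log2 signal of the 6 stellate cell and fibroblast markers was 9.32 to 10.24 in number 3, against 7.91 to 8.52 in number 1 and 8.08 to 9.24 in number 2. Of the 6, Col3a1 alone was higher in every array of number 3 than in all others, and Reln read 4.30 to 6.28 in number 3 against 5.89 to 8.54 elsewhere. The 4 cholangiocyte markers summed to 8.97 to 9.22 in number 3, 7.71 to 8.17 in number 1 and 8.19 to 9.13 in number 2. Taken alone, each of the 4 overlapped the other numbers. Krt19 read 6.67 to 7.86 in number 3 against 5.30 to 6.90 elsewhere, and Sox9 7.80 to 8.64 against 6.88 to 8.89. Tat, the tyrosine aminotransferase of hepatocytes, read 5.02 to 6.85 in number 3 and 6.67 to 8.91 in the others. Fgb, the fibrinogen beta chain of the same marker list, went the other way without overlap, with 13.56 to 14.22 in number 3 and 12.37 to 13.45 elsewhere. The 7 hepatocyte markers together did not follow it, with summed signals of 15.93 to 16.50 in number 3, 16.03 to 16.46 in number 1 and 16.06 to 16.49 in number 2. The 3′ minus 5′ signal of the control transcript Gapdh was also widest in the inputs of number 3. It read 0.40 in the wild type and 0.27 in the knockout, against -0.01 to 0.07 in the other inputs. The part of these measures in the low signals of number 3 was not tested. In RNA of a whole preparation, fewer cells of a type and less RNA per cell cannot be told apart.

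Gckr differed from the transporter in having its largest share of variation between groups, 48.8%, with 20.2% between numbers and 31.1% in the rest. Its inputs read 9.54, 10.37 and 10.51 in the wild type and 8.80, 10.13 and 8.62 in the knockout, for numbers 1, 2 and 3. Its IPs read 10.09, 9.93 and 10.10 in the wild type and 9.20, 9.77 and 8.70 in the knockout. The knockout was lower in all 3 numbers in both kinds of RNA, the inputs overlapped, and the IPs did not. The input difference was -0.96 ± 0.43 (SE, 95% interval -1.91 to -0.01), made up of -0.74, -0.24 and -1.89 in numbers 1 to 3, with an unadjusted limma p of 0.048 and an adjusted p of 1.0. Between the IPs the wild type was higher by 0.82 ± 0.43 (adjusted p = 1.0, and 0.317 with the number as a block). IP minus input within a genotype was -0.10 in the wild type and 0.04 in the knockout, with the preparations on both sides of 0.

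Over the 8 genes, the test without a block called none higher or lower between the inputs, where it called 0% of all genes in each direction. An unadjusted p under 0.05 was found for 1 of the 8, Gckr, and for 5 of all 9496 genes. With the number as a block none of the 8 was called either, again with 0% of all genes, and Gckr and Fbp1 had unadjusted p-values under 0.05, beside 0.558% of all genes. Gckr and Fbp1 were lower in the knockout input in all 3 numbers, a pattern found in 13% of all genes. None was higher in all 3, beside 16.1%, and for none did the inputs of the genotypes lie apart, beside 0.663% of all genes higher and 0.958% lower. The median difference of the 8 was -0.03, beside 0.02 over all genes.

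Pklr, pyruvate kinase of liver and red cells, was the gene whose signal separated IP from input. The wild-type inputs read 9.68, 9.35 and 8.68 and the IPs of the same preparations 8.25, 7.50 and 7.97. In the knockout the inputs read 9.41, 9.63 and 8.55 and the IPs 7.40, 7.62 and 7.03. In both genotypes every IP lay below every input, and 83.1% of the variation lay between groups and 8.76% between numbers. The wild-type IP differed from input by -1.33 ± 0.38 (SE, n = 3 per group), a 2.51-fold difference, with -1.43, -1.85 and -0.70 in the 3 preparations. The knockout IP differed by -1.85 ± 0.38, 3.60-fold, with -2.01, -2.01 and -1.52. Without a block neither was called (limma adjusted p = 0.232 and 0.157). Blocked by preparation, both fell (adjusted p = 0.0258 and 0.0175), and with the number as a block as well (0.0171 and 0.0080). The difference between genotypes, 0.52 ± 0.53, was not called with or without a block (adjusted p = 1.0 in each).

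The differences of Pklr kept their direction when the arrays of 1 number were left out. With the 4 arrays of number 1, 2 or 3 left out, the blocked differences were -1.28, -1.07 and -1.64 in the wild type and -1.76, -1.76 and -2.01 in the knockout, and the adjusted p-values 0.0902, 0.227 and 0.124, and 0.0693, 0.161 and 0.138. These smaller fits called 0 of all 9496 genes in either genotype without number 2 or number 3, so a lost call there says nothing of Pklr. Without number 1 they called 229 genes in the wild type and 41 in the knockout, and Pklr was not among them. With quantile normalized arrays and the preparation as a block the wild-type difference was -1.19 (adjusted p = 0.0495) and the knockout difference -1.58 (0.0512).

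Pklr is known for its answer to glucose, and its liver form starts at the downstream of 2 RefSeq start sites, from which the 250 bases before the start are shown. They hold the paired E boxes of the carbohydrate response element and a TATA box, both in capitals. Beside them stand the promoters of G6pc, whose TATA box and HNF1 half-site are in capitals, and of Slc2a2, which held none of the motifs searched. The sequences are from RefSeq on GRCm38.p6, 5′ to 3′ on the strand of the gene (plus in all 3), at chr3:89136373-89136622 for Pklr, chr11:101367466-101367715 for G6pc and chr3:28697653-28697902 for Slc2a2.
Pklr: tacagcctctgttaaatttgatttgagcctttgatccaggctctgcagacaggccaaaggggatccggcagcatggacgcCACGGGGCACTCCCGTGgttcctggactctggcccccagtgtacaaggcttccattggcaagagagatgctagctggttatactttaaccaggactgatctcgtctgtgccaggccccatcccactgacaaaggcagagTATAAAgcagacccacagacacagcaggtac
G6pc: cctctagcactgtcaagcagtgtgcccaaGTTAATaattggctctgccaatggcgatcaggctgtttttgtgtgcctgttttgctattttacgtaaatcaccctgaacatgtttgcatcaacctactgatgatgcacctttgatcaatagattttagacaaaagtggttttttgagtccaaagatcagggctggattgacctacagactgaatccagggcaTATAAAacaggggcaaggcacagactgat
Slc2a2: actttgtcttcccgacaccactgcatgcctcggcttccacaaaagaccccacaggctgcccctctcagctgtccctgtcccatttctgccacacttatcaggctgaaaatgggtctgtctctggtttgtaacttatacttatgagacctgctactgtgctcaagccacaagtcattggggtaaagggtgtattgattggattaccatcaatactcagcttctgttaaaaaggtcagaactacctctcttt

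The motifs were chosen after the sequences were seen and searched on both strands, overlaps between motifs allowed. The carbohydrate response element, CACGGG and CCCGTG with 5 bases between them, spans -170 to -154 of Pklr and was found in 1 of 32851 promoters, a share of 0.00304%, its letters being those of this gene's element. TATAAA lies at -31 to -26 in Pklr and -29 to -24 in G6pc and was found in 12.4% of promoters. GTTAAT lies at -221 to -216 in G6pc, and also in the promoters of Gckr at -59 to -54 and Pck1 at -192 to -187, and was found in 6.43%. TGACG, a part of the cyclic AMP response element, lies at -90 to -86 in Pck1 and -44 to -40 in Pygl and was found in 17.8%. Promoters of 7 of the 9 genes were matched, all but those of Gys2 and Ppp1r3b. A match is a description of letters, and these arrays measured RNA, not binding.

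Of the gluconeogenic genes, G6pc and Fbp1 gave no call between IP and input or between genotypes, while Pck1 lay below the level required for testing. G6pc, glucose-6-phosphatase, read 6.10, 6.87 and 4.39 in the wild-type inputs and 5.09, 6.21 and 4.42 in the knockout inputs. Its IPs read 5.49, 8.25 and 4.87 in the wild type and 4.98, 5.50 and 5.52 in the knockout. The wild-type IP of number 2 stood above all other arrays. With that array included the mean over the 12 arrays was 5.64, just above the level of 5.57 required for testing. Most single values lay below that level, all 3 knockout IPs among them. Without a common direction over the preparations (-0.61, 1.38 and 0.48) the wild-type IP differed from input by 0.42 ± 0.83. The input difference between genotypes was -0.55 (95% interval -2.37 to 1.27).

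Fbp1, fructose bisphosphatase, was close in IP and input. The inputs read 10.98, 11.30 and 10.26 in the wild type and 10.69, 10.86 and 9.51 in the knockout. The IPs read 10.99, 11.19 and 10.33 in the wild type and 10.64, 10.998 and 10.15 in the knockout. Number 2 was highest and number 3 lowest in all 4 groups, and all groups overlapped. IP minus input was -0.01 (95% interval -0.95 to 0.93) in the wild type and 0.24 (-0.70 to 1.18) in the knockout. Blocked by preparation, these intervals narrowed to -0.48 to 0.46 and -0.23 to 0.71. The knockout input lay lower by -0.29, -0.43 and -0.75 in the 3 numbers, a difference of -0.49 ± 0.43 (limma adjusted p = 1.0, also with the number as a block).

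Pck1, the cytosolic phosphoenolpyruvate carboxykinase, was dim on every array. Its inputs read 3.44, 3.57 and 3.18 in the wild type and 3.22, 3.63 and 3.11 in the knockout, and its IPs 4.30, 3.65 and 4.02 in the wild type and 4.33, 3.20 and 3.70 in the knockout. All 12 values lay below the level of 5.57 required for testing. In a fit of every named probe set IP minus input was 0.59 ± 0.31 (limma adjusted p = 0.416) in the wild type and 0.42 ± 0.31 (0.441) in the knockout. The 10th percentile of all probe sets was also higher in the IPs, with group means of 3.86 and 4.05 in the wild-type and knockout IPs against 3.48 and 3.46 in the inputs, and its part in the Pck1 values was not tested.

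The glycogen genes Gys2 and Pygl were lower in the IP of every preparation. Gys2, the liver glycogen synthase, read 7.45, 8.18 and 5.72 in the wild-type inputs and 7.09, 7.56 and 4.74 in the IPs of the same preparations. In the knockout the inputs read 7.78, 8.47 and 5.61 and the IPs 7.33, 7.58 and 4.93. Number 3 was lowest and number 2 highest in all 4 groups, and 91.1% of the variation lay between numbers. IP minus input was -0.66 ± 0.99 in the wild type, with -0.37, -0.62 and -0.99 by preparation, and -0.67 ± 0.99 in the knockout, with -0.45, -0.89 and -0.68. No call was made without a block (limma adjusted p = 0.856 and 0.850) or with the preparation as a block (0.0894 and 0.0853), and with the number as a block Gys2 passed narrowly in both genotypes (0.0487 and 0.0469). The genotypes' differences lay close together, 0.01 apart, with a 95% interval of -0.66 to 0.69 in the fit with the preparation as a block.

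Pygl, the liver glycogen phosphorylase, read 11.62, 11.65 and 10.63 in the wild-type inputs and 11.40, 10.60 and 9.72 in the IPs. The knockout inputs read 11.80, 11.46 and 10.71 and the IPs 11.56, 10.71 and 9.60. Number 1 was highest in 3 of the 4 groups and number 3 lowest in all, and IP and input overlapped in both genotypes. IP minus input was -0.72 ± 0.56 in the wild type and -0.70 ± 0.56 in the knockout, and it was not called without a block (limma adjusted p = 0.670 and 0.696), with the preparation as a block (0.108 and 0.118) or with the number as a block (0.0628 and 0.0707).

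Ppp1r3b, the glycogen-targeting subunit of protein phosphatase 1, was the only one of the 8 genes with a higher signal in every wild-type IP than in its own input. The wild-type inputs read 8.14, 9.58 and 7.20 and the IPs 8.59, 10.79 and 8.48, so IP minus input was 0.45, 1.21 and 1.28. The knockout inputs read 8.38, 9.30 and 7.15 and the IPs 8.48, 9.63 and 7.29, with differences of 0.10, 0.33 and 0.14. The groups of single arrays overlapped, while the differences did not, since the smallest in the wild type exceeded the largest in the knockout. Without a block the wild-type difference was 0.98 ± 0.83, 1.97-fold, and was not called (limma adjusted p = 0.708). It rose with the preparation as a block (0.98 ± 0.22, adjusted p = 0.0387) and with the number as a block (0.0325). The knockout difference of 0.19 was not called in any of these fits (adjusted p = 0.958, 0.606 and 0.634).

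The difference between the genotypes in this IP minus input value, called specific enrichment below, was 0.79 for Ppp1r3b and did not pass in any fit. Its SE was 1.17 without a block (limma adjusted p = 1.0) and 0.32 with the preparation as a block (adjusted p = 0.731, unadjusted p under 0.05). With the number as a block the adjusted p was 0.740. Leaving out single arrays without a block moved the value between 0.036, without the wild-type IP of number 2, and 1.43, without the wild-type input of number 2. Leaving out a whole number under the preparation block gave 0.61 to 1.01. The wild-type difference itself moved between 0.23 and 1.62 without those same arrays. So the higher signal was called in the wild type and not in the knockout, and the contrast of both was not. With the preparation as a block the wild-type difference was 1.25 (adjusted p = 0.0499) without number 1, 0.86 (0.262) without number 2 and 0.83 (0.231) without number 3, where the fits without number 2 or 3 called 0 of all genes. On quantile normalized arrays with that block it was 1.12 (adjusted p = 0.0462).

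**Figure D2:**
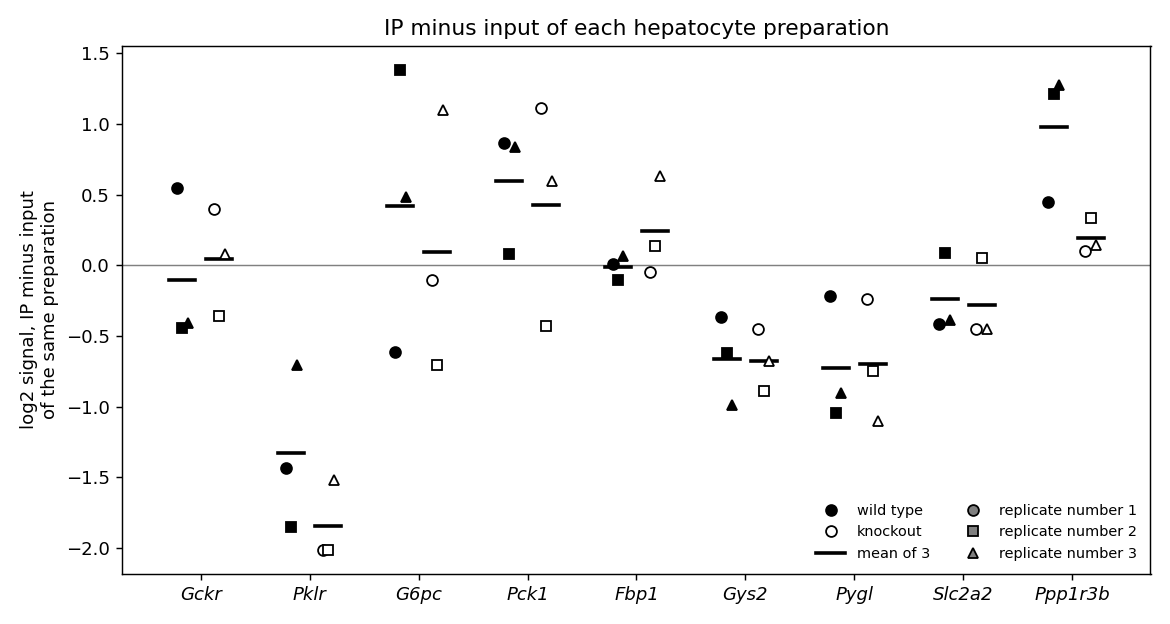
IP minus input in log2 units for each preparation. Filled markers are wild type and open markers knockout, the marker's shape gives the replicate number and the bar is the mean of 3. All 6 markers of Pklr lie below 0, from -0.70 to -2.01, those of Gys2 and Pygl also lie below 0, and the wild-type markers of Ppp1r3b, 0.45 to 1.28, lie above its knockout markers, 0.10 to 0.33.

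Counted over the 8 tested genes, limma without a block called none between IP and input. In the wild type it called 0.105% of all genes higher and 0% lower in the IP, and in the knockout 0% in either direction. An unadjusted p under 0.05 was found for 1 of the 8 in each genotype, Pklr both times, beside 10.6% of all genes in the wild type and 11% in the knockout. With the preparation as a block 1 of the 8 was called higher, Ppp1r3b, and 1 lower, Pklr, in the wild type, beside 2.41% and 4.61% of all genes. In the knockout none was called higher and 1 lower, Pklr, beside 0.727% and 5.28%. With the number as a block Gys2 joined Pklr as lower in each genotype, beside 7.86% of all genes in the wild type and 9.45% in the knockout, and Ppp1r3b was called higher in the wild type beside 3.81%, while none was called higher in the knockout beside 1.85%.

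Ordered by sign alone, 3 of the 8 genes, Pklr, Gys2 and Pygl, were lower in the IP of all 3 preparations in the wild type and the same 3 in the knockout, beside 33% and 35.3% of all genes. Higher in all 3 preparations was 1 of the 8, Ppp1r3b, in each genotype, beside 19% and 12.8% of all genes. Groups did not overlap for 1 of the 8, Pklr, in each genotype, lower in the IP, beside 7.59% and 10.1% of all genes. None of the 8 had groups apart with the IP higher, beside 7.72% and 5.31%. Read against these shares, the counts are no result about the 8 genes as a set. The median IP minus input difference of the 8 was -0.17 in the wild type and -0.12 in the knockout, beside -0.11 and -0.21 over all genes. Quantile normalization moved the median of all genes in the knockout from -0.21 to -0.04 and in the wild type from -0.11 to -0.04. With the preparation as a block it changed the wild-type calls over all genes from 229 higher and 438 lower to 172 higher and 159 lower, and the knockout calls from 69 higher and 501 lower to 3 higher and 30 lower.

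The 5′ ends of abundant control transcripts were lower in the IPs. The 3′ minus 5′ difference of Gapdh was -0.01 to 0.40 in the 6 inputs, 0.84, 0.94 and 2.34 in the wild-type IPs and 1.14, 0.88 and 1.93 in the knockout IPs, with the widest gap in number 3 of both genotypes. For beta-actin it was 0.28 to 1.05 in the inputs and 1.90 to 2.96 in the IPs. The summed hepatocyte markers were lower in every IP than in every input, with group means of 16.46 and 16.44 in the wild-type and knockout inputs and 16.09 and 16.005 in the IPs. The summed Kupffer cell and macrophage markers were higher in every IP. Only 1 of these 7 genes reached the level required for testing, and dim probe sets as a whole read higher in the IPs. The 10th percentile of all probe sets had group means of 3.86 and 4.05 in the wild-type and knockout IPs, against 3.48 and 3.46 in the inputs. The part of these in the IP minus input differences of Pklr, Gys2, Pygl and the other liver genes was not tested.

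Between wild-type and knockout IPs none of the 8 genes was called, without a block or with the number as a block. Without a block 0.253% of all genes were higher and 0% lower in the wild-type IP, and with it 2.33% and 0.126%. An unadjusted p under 0.05 was found for none of the 8 without a block and for 2, Gckr and Ppp1r3b, with the number as a block, beside 5.39% and 14.4% of all genes. Ppp1r3b was higher in the wild-type IP by 0.82 ± 0.83, with 0.11, 1.16 and 1.18 in numbers 1 to 3 (limma adjusted p = 1.0, and 0.147 with the number as a block). Only Gckr had groups that did not overlap, beside 5.44% of all genes for groups higher in the wild type and 1.35% for groups lower. The wild-type IP was higher in all 3 numbers for 3 of the 8, Gckr, Fbp1 and Ppp1r3b, beside 20.1% of all genes, and lower in all 3 for 1, Gys2, beside 14.2%. The median difference of the 8 was 0.40, beside 0.04 over all genes. These comparisons share arrays with those of IP against input.

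In specific enrichment none of the 8 genes was called in any of the 3 fits, beside 0.0105% of all genes higher and 0% lower without a block. The shares called higher were 0.0211% with the preparation and 0.284% with the number as a block, and those called lower 0%. An unadjusted p under 0.05 was found for none without a block, beside 1.98% of all genes, and for 1, Ppp1r3b, with either block, beside 6.16% and 6.62%. Differences of 1 sign in all 3 numbers were found for Pklr, Slc2a2 and Ppp1r3b, all positive, beside 21.4% of all genes, and none was negative in all 3, beside 13.7%. The median of the 8 was 0.03 and that of all genes 0.05. Of the 8 genes, only for Ppp1r3b did the preparations of the genotypes not overlap, with the wild type higher, beside 7.94% of all genes, and none lay apart the other way, beside 2.58%.

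**Figure D3:**
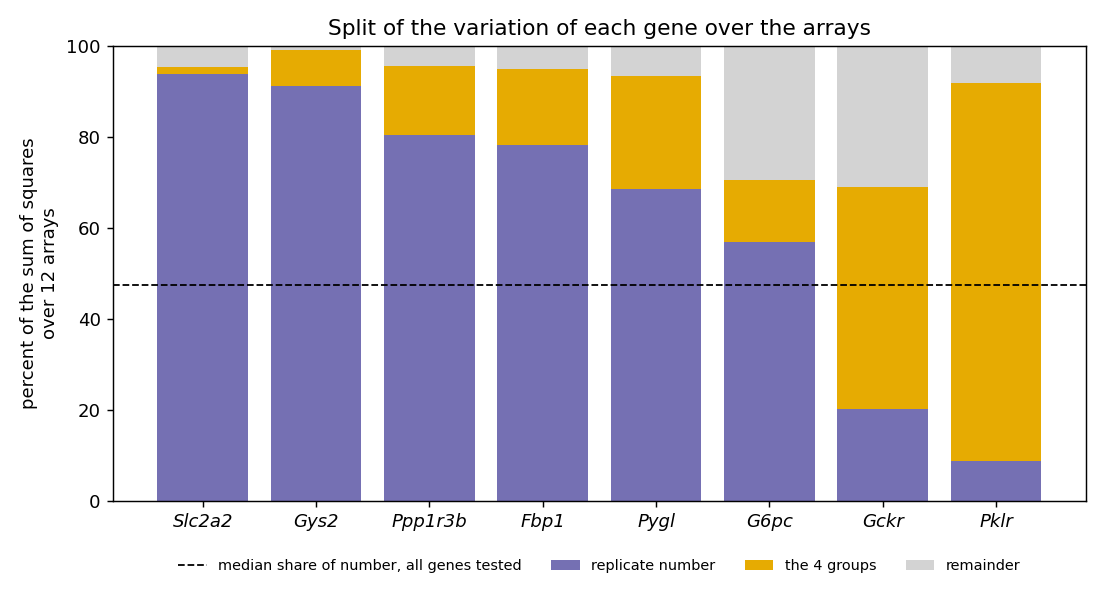
Split of each tested gene's sum of squares over the 12 arrays, in percent, into replicate number, the 4 groups and the rest. The dashed line is the median share of the number over all 9496 genes, 47.5%, and Slc2a2 with 93.9% lies farthest above it while Pklr with 8.76% lies farthest below.

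The split of the variation also set the genes apart from each other. The share between numbers was 80.4% for Ppp1r3b, 78.1% for Fbp1, 68.6% for Pygl and 57.0% for G6pc. The means of numbers 1, 2 and 3 were 7.41, 7.95 and 5.25 for Gys2, 8.40, 9.83 and 7.53 for Ppp1r3b, and 11.59, 11.10 and 10.16 for Pygl. All 8 genes had a higher mean in number 2 than in number 3, as had 57.2% of all genes tested. Across the 12 arrays Gys2 and Slc2a2 had a Pearson r of 0.92, Slc2a2 and Ppp1r3b 0.85, Gys2 and Pygl 0.84 and G6pc and Ppp1r3b 0.82. Pklr had r of -0.04 with Ppp1r3b and 0.66 with Pygl, and Gckr reached at most 0.54, with Fbp1. These are descriptions over 12 arrays that share 3 numbers and 4 groups.

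The genes outside the set whose signals over the 12 arrays were most like each member were found by Pearson r. For Slc2a2 they were Fam107b (0.98) and Ttpa (0.97), the alpha-tocopherol transfer protein of the liver. For Gys2 they were Otulin and Msra (both 0.98), for Pygl Vti1b and Hspbp1 (both 0.98), and for Ppp1r3b Med11 (0.98), followed by a gene with a clone name. Fbp1 was most like Slc25a47 (0.93) and Tkfc (0.90), and G6pc most like Sertad3 and Sesn1 (both 0.90). Pklr was most like Stk11 (0.98), the kinase LKB1, and Nme3 (0.96). Gckr had no close match, with Tsc22d1 at 0.78 and Med8 at 0.74.

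Around these genes stand 4 lists of the wider pathway. They were named from general knowledge but with earlier results of these data known, so their counts beside the shares of all genes are descriptions. Without a block limma called none of their tested genes in any comparison. Unadjusted p-values under 0.05 are counted here for glycolysis and gluconeogenesis (14 tested genes), glycogen (20) and transcriptional and hormonal control (27), in that order. In wild-type IP against input the counts were 1, 0 and 4, beside 10.6% of all genes. In the knockout they were 2, 1 and 2, beside 11%. Between the IPs they were 1, 1 and 5, beside 5.39%, and in specific enrichment 1, 0 and 3, beside 1.98%. The other sugar list had none, and between the inputs no list had any, beside 0.0527%. Glycolysis and gluconeogenesis had 14 tested genes of 28 listed, 18 of them in the table. Under the preparation block 1 of the 14 was called lower in the wild-type IP and 2 in the knockout IP, none higher, beside 4.61% and 5.28% of all genes. Got1, the cytosolic aspartate aminotransferase, fell in both, by -1.74 ± 0.23 (limma adjusted p = 0.0119) and -1.66 ± 0.23 (0.0175). Its inputs read 11.15, 11.69 and 10.11 in the wild type and its IPs 9.61, 9.54 and 8.58. G6pc3, the widely expressed relative of glucose-6-phosphatase, fell in the knockout IP by -1.25 ± 0.23 (0.0282). Its wild-type IP, with a difference of -0.04, was not called. The number block added Slc37a4, the transporter that carries glucose 6-phosphate to glucose-6-phosphatase, which fell in the knockout IP by -0.94 ± 0.24 (0.0363). With that block 1 of the 14 was called lower in the wild-type IP and 3 in the knockout IP, beside 7.86% and 9.45% of all genes. None was called higher. The median over the list was -0.23 in the wild type and -0.28 in the knockout, beside -0.11 and -0.21 over all genes.

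Of the wider glycogen list 20 genes were tested of 28 listed and 24 in the table. With the preparation as a block 1 of the 20 was called lower in the wild-type IP, beside 4.61% of all genes, and 0 in the knockout IP, beside 5.28%. It was Pgm1, a phosphoglucomutase, which fell by -0.89 ± 0.20 (limma adjusted p = 0.0386). With the number as a block 2 of the 20 were called lower in each genotype, beside 7.86% and 9.45% of all genes. Pgm1 was again one in the wild type. Ppp1ca, a catalytic subunit of the phosphatase that PPP1R3B binds, was called lower in the wild-type IP, by -0.75 ± 0.17 (adjusted p = 0.0235), and in the knockout IP, by -0.69 ± 0.17 (0.0325). Phka2, the liver subunit of phosphorylase kinase, was called lower in the knockout IP with that block, by -0.60 ± 0.17 (0.0470). Gys1, the synthase of muscle and other tissues, read 6.50, 6.73 and 6.69 in the wild-type inputs and 7.21, 7.15 and 6.995 in the IPs, a difference of 0.48 ± 0.25 that was not called without a block (adjusted p = 0.533). In the knockout it differed by -0.20. The list's median was -0.22 in each genotype.

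Entry of other sugars had 8 tested genes of 18 listed and 13 in the table. Under the preparation block 1 of the 8 was called in each genotype, beside 2.41% of all genes higher in the wild-type IP and 5.28% lower in the knockout IP. Slc2a1, the transporter GLUT1 of most cell types, rose in the wild-type IP by 0.94 ± 0.21 (limma adjusted p = 0.0360), and Khk, ketohexokinase of fructose metabolism, fell in the knockout IP by -0.87 ± 0.19 (0.0398). With the number as a block Khk fell in both genotypes (0.0275 and 0.0140) and Slc2a1 was not called. That is 1 of the 8 called lower in each genotype, beside 7.86% of all genes in the wild type and 9.45% in the knockout. Khk followed the number as Slc2a2 did, with inputs of 10.49, 12.64 and 9.23 in the wild type and 10.52, 12.32 and 9.02 in the knockout. The list's median was -0.10 in the wild type and 0.03 in the knockout.

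Transcriptional and hormonal control had 27 tested genes of 32 listed and 28 in the table. Under the preparation block 2 of the 27 rose and 2 fell in the wild-type IP, beside 2.41% and 4.61% of all genes, and in the knockout IP 0 rose and 1 fell, beside 0.727% and 5.28%. Pdk4, a kinase that shuts off pyruvate dehydrogenase, rose by 1.56 ± 0.36 (limma adjusted p = 0.0403), and Srebf1, a lipogenic transcription factor under insulin, by 1.001 ± 0.23 (0.0388). Insr, the insulin receptor, fell by -1.07 ± 0.22 (0.0295), and Stk11 by -0.93 ± 0.22 (0.0405). Stk11 fell in the knockout IP as well, by -1.12 ± 0.22 (0.0299), the only one of the list called there with this block. The number block added Per1, which rose by 0.91 ± 0.25 (0.0447), and Nr1i2, a xenobiotic receptor, which fell by -1.31 ± 0.38 (0.0496), both in the wild-type IP. With that block 3 of the 27 rose and 3 fell there, beside 3.81% and 7.86% of all genes. In the knockout IP 0 rose and 1 fell, beside 1.85% and 9.45%. The list's median was -0.12 in the wild type and -0.39 in the knockout. Mlxipl, the factor ChREBP that binds the carbohydrate response element, was not called, with -0.36 ± 0.45 in the wild type and -0.41 ± 0.45 in the knockout.

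Between the IPs, with the number as a block, 1 of the 14 genes of glycolysis and gluconeogenesis and 3 of the 27 control genes were higher in the wild type, 0 of the 20 glycogen and 8 other sugar genes were, and none was lower, beside 2.33% of all genes higher and 0.126% lower. G6pc3 differed by 1.27 ± 0.25 (limma adjusted p = 0.0286), Pdk4 by 1.67 ± 0.34 (0.0314), Per1, a clock gene that glucocorticoids induce, by 1.51 ± 0.25 (0.0127), and Trib1, a pseudokinase of liver lipid metabolism, by 0.98 ± 0.20 (0.0313). The wild-type IPs of Pdk4 read 7.43, 7.56 and 7.65 and the knockout IPs 6.17, 5.67 and 5.79. None was called without a block, and none was called in specific enrichment in any fit. Between the inputs none of the tested genes of the 4 lists was called, and in the fit without a block none of them had an unadjusted p under 0.05. Gcgr, the glucagon receptor, gave -0.44 ± 0.30 there, and Mlxipl -0.59 ± 0.45, both with the knockout lower on average.

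**Figure D4:**
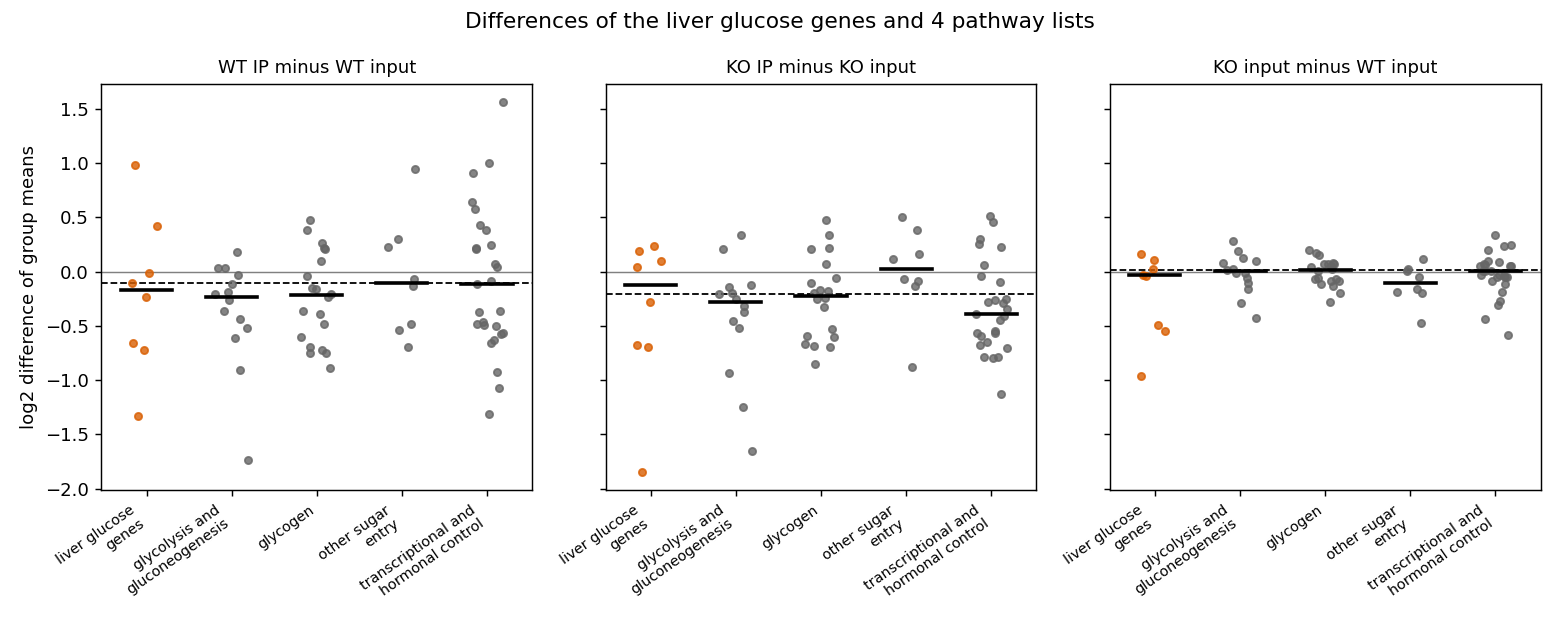
Log2 differences of group means, without a block, of the 8 tested liver glucose genes (orange) and the tested genes of the 4 pathway lists (grey), for wild-type IP minus input, knockout IP minus input and knockout minus wild-type input. Black bars are the medians of a set and the dashed line is the median of all genes. The medians of the liver glucose genes, -0.17, -0.12 and -0.03, lie close to the dashed lines at -0.11, -0.21 and 0.02.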

How the data were processed

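The values were deposited by the authors as log2 signals, 1 per probe set and array, with each gene read by a single probe set. How background was corrected and arrays normalized and summarised is not stated in the labels or file. The table held 16539 probe sets, of which 64 were controls and 695 were unnamed here. Genes with a mean over the 12 arrays at or above the 40th percentile, 5.57, were tested. Differences were fitted with limma 3.58.1 in R 4.3.3 (statmod 1.5.0) with 4 group means (8 residual degrees of freedom). All p-values are two-sided. Adjusted p-values are by Benjamini-Hochberg over 9496 genes, at a threshold of 0.05. A fit with another filter was adjusted over its own genes, which were 15780 for every named probe set. Blocked fits took the preparation (4 residual degrees of freedom) or the replicate number (6). The fit without a block was tested on simulated data with independent noise on each array. That simulation held no effect of the replicate number, and the blocked fits were not run on it. The genes and lists were chosen with earlier results of these data known. All 9 genes were to be named, with every called gene of a list or otherwise its 2 smallest p-values per comparison (of the latter a selection is given), and the 2 most alike genes per member. Sequences come from RefSeq. Figures used Python 3.11.15 and matplotlib 3.10.9. An array has no read depth, so the number of arrays limits precision.

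As a check of pairing, each gene's group means were subtracted, and 18 pairs of arrays that share a number but not a group correlated at 0.453 to 0.936 (median 0.672) and arrays with different numbers at -0.711 to 0.0685. The subtraction itself lowers the correlations of different numbers when those of the same number are positive, so that range is no separate evidence. The pairing of arrays by number rests on the correlations of arrays that share a number. That an IP and its input share a preparation is from the series' design text, and the sharing between genotypes is from the values alone.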

Additional observations from a re-analysis of the deposited data

How the results depend on the processing

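Of 822 values of the 8 genes under another setting, compared with 40 main values, 721 kept their direction and side of the threshold, 11 kept the direction and were called under a replicate block, and 90 changed sign. Under the planned replicate block by preparation 2 genes were called in the wild-type IP and 1 in the knockout IP, and by number 3 and 2. Over all genes these blocks called 667 and 1108 in the wild type, 570 and 1073 in the knockout, 233 between the IPs (number) and 2 and 27 in specific enrichment. The blocks changed no call between the inputs, nor any of the 8 genes between the IPs or in specific enrichment. Quantile normalization called 16 genes in the wild-type IP, and with the preparation block 331 there (2 of the 8 genes) and 33 in the knockout. With only the arrays compared 1 gene was called in the wild-type IP and 0 between the IPs, and without a filter 52 in the knockout IP. Quantile normalized values changed sign, with or without the block, for Gckr (0.054) and Fbp1 (0.16) in the wild-type IP, G6pc in the knockout IP (-0.30) and Gys2 in specific enrichment (-0.081), and the cause was not tested. The quantile settings with a block and the removal of a whole number under the block were added after seeing the data.

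Leaving out single arrays, or 1 number under the block, called 0 to 1 of the 8 genes in the wild-type IP and 0 elsewhere. Over all genes it called 0 to 229 in the wild-type IP, 0 to 41 in the knockout IP, 4 to 16 between the IPs and 0 to 4 in specific enrichment, with fewer arrays in each fit. A group left with 2 arrays shares the spread of the others. The following genes changed sign in such fits. In wild-type IP against input the values ranged over -0.30 to 0.24 for Fbp1, -0.61 to 1.08 for G6pc, -0.43 to 0.084 for Gckr, -1.36 to 0.20 for Gys2 and -1.05 to 0.41 for Slc2a2. In knockout IP against input the values ranged over -0.18 to 0.49 for Fbp1, -0.40 to 0.58 for G6pc, -0.24 to 0.51 for Gckr, -1.51 to 0.17 for Gys2, -0.39 to 0.78 for Ppp1r3b and -0.99 to 0.51 for Slc2a2. Between the inputs the values ranged over -0.53 to 1.01 for Gys2, -0.32 to 0.28 for Pklr, -0.58 to 0.61 for Ppp1r3b, -0.31 to 0.33 for Pygl and -0.47 to 0.82 for Slc2a2. Between the IPs the values ranged over -0.15 to 1.54 for G6pc, -0.996 to 0.71 for Gys2, -0.56 to 0.42 for Pygl and -0.87 to 0.59 for Slc2a2. In specific enrichment the values ranged over -0.54 to 0.17 for Fbp1, -0.70 to 0.99 for G6pc, -0.61 to 0.14 for Gckr, -0.83 to 0.88 for Gys2, -0.54 to 0.44 for Pygl and -0.77 to 0.75 for Slc2a2.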

Other observations

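The array also carries control probe sets along the transcript of pyruvate carboxylase, the mitochondrial entry of gluconeogenesis. Its 3′ probe set read 9.67 ± 0.26 (SD, n = 3) in the wild-type inputs, 9.58 ± 0.41 in the wild-type IPs, 9.35 ± 0.13 in the knockout inputs and 9.51 ± 0.59 in the knockout IPs. The 5′ probe set read 5.95 ± 0.53, 5.59 ± 0.30, 5.74 ± 0.17 and 5.89 ± 0.55 in the same groups, with overlap between all 4. Of the middle probe sets, MA read 6.36 ± 0.71 and 6.37 ± 0.31 in the wild-type and knockout inputs and 6.57 ± 0.30 and 6.44 ± 0.26 in the IPs. The other, MB, read 6.44 ± 0.45 and 6.22 ± 0.37 in the wild-type and knockout inputs and 5.44 ± 0.49 and 4.96 ± 0.22 in the IPs, and every knockout IP lay below every knockout input. The gene's own probe set, Pcx, read 9.37 ± 0.41 in the wild-type inputs, 8.85 ± 0.19 in the wild-type IPs, 8.95 ± 0.22 in the knockout inputs and 8.82 ± 0.29 in the knockout IPs. Control probe sets were not tested.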
